A study of Homo sapiens with 3 samples.

Results

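The urokinase plasminogen activator system was followed through 5 genes: the activators PLAU and PLAT, the urokinase receptor gene PLAUR, and the inhibitor genes SERPINE2 and SERPINB2. A peak was assigned to a gene when its centre lay in the gene body or within 100 kb of an annotated transcription start site (TSS) of that gene. This rule took 13 of the 9998 Fra-1 peaks and 19 of the 13003 Fra-2 peaks. The data came from chromatin immunoprecipitation followed by sequencing (ChIP-seq) in MDA-MB-231, an established triple-negative, basal B breast cancer line, grown in medium with 10% fetal calf serum. Groups were named by antibody: Fra-1 (the protein of FOSL1), Fra-2 (the protein of FOSL2) and input DNA with no antibody. The labels speak of 2 independent replicates of each, but each antibody has 1 peak list. The input was not used here. No count therefore has a spread between replicates, and differences between the lists were not tested. The lists give positions and widths only. Read depth is unknown, and no expression is measured, so neither the identity of the cells nor the activity of a gene could be read from them.

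Urokinase and tissue-type plasminogen activator are serine proteases that cleave plasminogen into plasmin, which degrades fibrin and other matrix proteins. The urokinase receptor holds urokinase at the cell surface, and inhibitors of the serpin family inactivate both activators. Fra-1 and Fra-2 belong to the Fos family and bind DNA as dimers with Jun proteins, the AP-1 complexes, at the element TGAGTCA, which reads TGACTCA on the other strand. In human cells an enhancer upstream of PLAU is known for an AP-1 site joined to an ETS-type PEA3 site and for a further AP-1 site, and PLAU expression is known as a mark of invasive breast cancer cells.

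The sequences under the peaks of PLAU are shown first, because they carry both the canonical element and departures from it. All are from the hg19 plus strand with matches in capitals. The first and second come from the peak nearest to the TSS of the MANE Select transcript (the reference transcript agreed by Ensembl and RefSeq). That peak is centred 1.94 kb upstream of this TSS. The first covers the bases before an annotated 5′ exon, chr10:75668801-75668934, and the second a short stretch inside that exon, chr10:75668990-75669016. The capitals mark TGAAGTCA and TGAATCA, which resemble the AP-1 element. The third is the peak 4.26 kb upstream, chr10:75666501-75666750, with the 1-base variant TGAGTAA in capitals. The others, chr10:75659201-75659400, chr10:75654401-75654600 and chr10:75647551-75647750, hold the element in capitals, written TGAGTCA or, where it is on the other strand, TGACTCA. In the first and last of these the letters GCATTCC, the reverse complement of the TEAD consensus GGAATGC, are also in capitals.

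PLAU, 1.94 kb upstream, before the exon: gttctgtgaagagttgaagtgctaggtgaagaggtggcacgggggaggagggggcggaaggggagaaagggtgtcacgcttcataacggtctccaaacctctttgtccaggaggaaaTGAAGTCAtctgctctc
PLAU, 1.94 kb upstream, inside the exon: gggagcaacaTGAATCAtgacggtccc
PLAU, 4.26 kb upstream: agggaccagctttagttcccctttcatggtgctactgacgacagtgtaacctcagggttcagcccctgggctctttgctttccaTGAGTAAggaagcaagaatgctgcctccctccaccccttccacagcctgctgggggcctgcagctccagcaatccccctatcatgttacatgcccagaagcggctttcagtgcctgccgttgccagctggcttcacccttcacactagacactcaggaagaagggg
PLAU, 11.59 kb upstream: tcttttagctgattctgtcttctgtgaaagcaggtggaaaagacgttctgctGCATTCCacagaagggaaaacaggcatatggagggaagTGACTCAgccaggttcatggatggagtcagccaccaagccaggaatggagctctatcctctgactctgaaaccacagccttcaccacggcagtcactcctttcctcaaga
PLAU, 16.39 kb upstream: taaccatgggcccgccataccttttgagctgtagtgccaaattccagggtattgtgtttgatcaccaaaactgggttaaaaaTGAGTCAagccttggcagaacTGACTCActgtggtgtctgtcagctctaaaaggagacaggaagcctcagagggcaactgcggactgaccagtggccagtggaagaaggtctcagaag
PLAU, 23.24 kb upstream: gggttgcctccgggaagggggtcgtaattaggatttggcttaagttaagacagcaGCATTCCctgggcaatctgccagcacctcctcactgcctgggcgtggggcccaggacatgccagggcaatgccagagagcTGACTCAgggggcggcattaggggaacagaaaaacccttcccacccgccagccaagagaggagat

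PLAU encodes urokinase and lies on chromosome 10 from 75668935 to 75677254 on the plus strand (ENSG00000122861.16, hg19 coordinates in GENCODE). It had 6 Fra-1 peaks and 10 Fra-2 peaks, more than any other of the 5 genes in either list. All 6 Fra-1 peaks overlapped a Fra-2 peak, and the other 4 Fra-2 peaks had no Fra-1 counterpart. Of 20098 protein-coding genes on chromosomes 1 to 22 and X, 1.77% had at least as many Fra-1 peaks as PLAU and 0.567% at least as many Fra-2 peaks. With peaks in repeat-like regions left out, these shares were 1.62% and 0.522%. A Fra-1 peak was assigned by the same rule to 45.3% of protein-coding genes and a Fra-2 peak to 58.6%, beside 4 of the 5 genes in each list. All 4 had a Fra-1 peak that overlapped a Fra-2 peak, as 40.6% of protein-coding genes did.

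**Figure D1:**
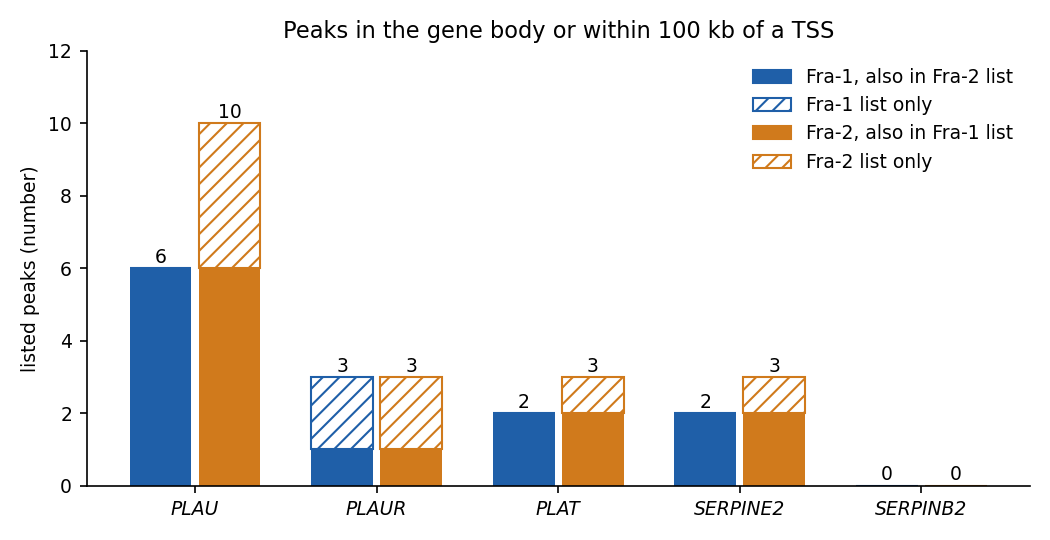
Number of listed peaks (vertical axis) of each of the 5 genes in the Fra-1 list (blue) and the Fra-2 list (orange), with filled parts for peaks that overlap the other list and hatched parts for peaks in 1 list only. PLAU had 6 and 10 peaks, and SERPINB2 none in either list.

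Most PLAU peaks stood in a row upstream of the MANE Select TSS, the last of them centred inside the annotated gene. Between 75647201 and 75669151, a stretch of 21.9 kb with no protein-coding gene other than the start of PLAU itself, lay 5 Fra-1 and 7 Fra-2 peaks. The shared sites were centred 23.24, 16.39, 11.59, 4.26 and 1.94 kb upstream of the MANE Select TSS in the Fra-1 list. Their Fra-1 widths were 200, 200, 200, 250 and 300 bp in that order, and their Fra-2 widths 200, 250, 250, 250 and 350 bp. Width thus was greatest at the site nearest to that TSS in both lists. Only 5.5% of all Fra-2 peaks were 350 bp wide or wider. A pair of further Fra-2 peaks, 23.61 and 17.54 kb upstream, had widths of 150 and 100 bp, and the first of them ended 200 bp before the nearest Fra-1 peak. The 25 kb upstream of the TSS held 11 copies of TGAGTCA, of which 4 lay inside Fra-1 peaks and 6 inside Fra-2 peaks.

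**Figure D2:**
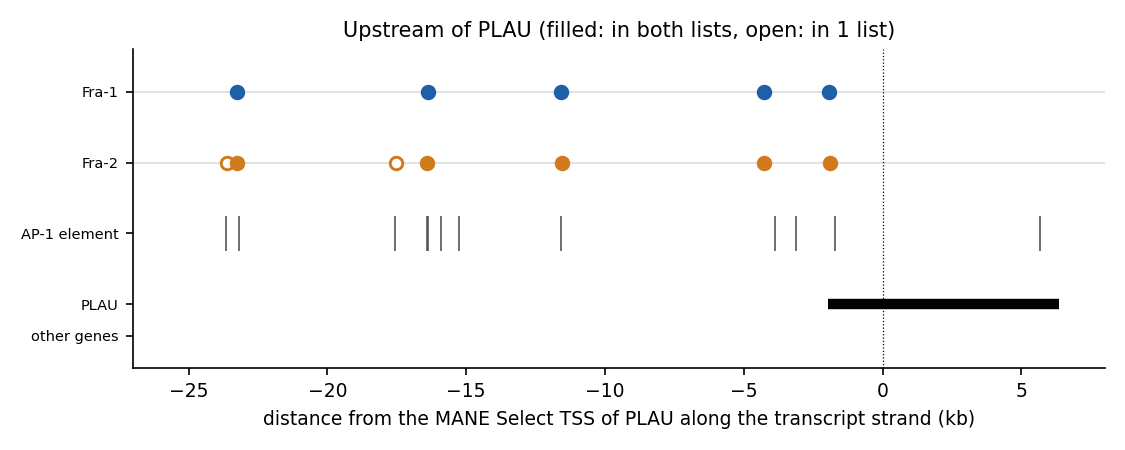
Positions of the peaks upstream of PLAU in kb from the MANE Select TSS (horizontal axis), with rows for the Fra-1 list, the Fra-2 list, copies of TGAGTCA on either strand (AP-1 element), the gene and other protein-coding genes (none in view). Filled circles are in both lists: 5 sites were shared, and 2 further Fra-2 peaks (open circles) had no Fra-1 peak.

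The 2 sites closest to PLAU lacked TGAGTCA within 100 bp of their centres in both lists. The first, from 75668801 to 75669101 in the Fra-1 list and to 75669151 in the Fra-2 list, was centred in the 5′ exon of an alternative transcript that starts at 75668935, 1.96 kb before the MANE Select TSS. Its nearest TGAGTCA began at 75669192, which was 92 bp beyond the end of the Fra-1 peak and 42 bp beyond that of the Fra-2 peak. The peak held TGAATCA, which 22.6% of the Fra-1 and 27.8% of the Fra-2 peaks without TGAGTCA also hold. It held TGAAGTCA as well, directly preceded by the letters aggaaa, as the first sequence shows. TGAAGTCA was searched for after the sequence had been seen, and among peaks without TGAGTCA it occurred in 1.95% for Fra-1 and 1.68% for Fra-2. TGAATCA and TGAAGTCA together were in 0.696% and 0.663% of those peaks. A further variant, GGAGTCA, began at 75668970 in a part of the exon that is not printed. It lay 22 bp from the centre of the Fra-1 peak and closer still to that of the Fra-2 peak.

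The second site without the element, from 75666501 to 75666751 in both lists, had its nearest TGAGTCA 404 bp from its centre. Within 100 bp it held TGAGTAA, 1 base from the element. Some variant 1 base away from TGAGTCA, also searched for after the sequences had been seen, was in 64.9% of the Fra-1 peaks without TGAGTCA and in 64.1% of such Fra-2 peaks. An ETS core, AGGAAG, began on the last base of TGAGTAA at 75666591. The same letters were in 25.7% of the whole Fra-1 list and 25.2% of the whole Fra-2 list.

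The more distant upstream sites of PLAU each held the element. The one 16.39 kb upstream carried 2 copies on opposite strands whose starts were 21 bp apart, as printed above. Of all nuclear peaks, 13.3% for Fra-1 and 12.2% for Fra-2 had 2 or more copies within 100 bp. The site 11.59 kb upstream had 1 copy 7 bp from the centre of the Fra-1 peak, along with a TEAD consensus, a RUNX core TGTGGTT and an E-box CAGGTG. TEAD proteins are the DNA-binding partners of YAP and TAZ. The TEAD letters GGAATGC or GGAATGT were in 2 Fra-1 peaks out of 13 and 3 Fra-2 peaks out of 19 at the 5 genes, all of them upstream of PLAU, and in 15.9% and 13.1% of all peaks.

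Other PLAU peaks were nearer to a neighbour. The shared site from 75759101 to 75759351, 250 bp wide in both lists, lay in an intron of VCL, which encodes the adhesion protein vinculin, 1.35 kb from a VCL TSS and 88.34 kb downstream of the PLAU TSS. A Fra-2 peak from 75587201 to 75587301 was in an intron of CAMK2G, a calcium-dependent kinase gene. The last of the 4 Fra-2 peaks without a Fra-1 counterpart, from 75726001 to 75726201, was intergenic, 55.21 kb downstream of the PLAU TSS and 28.85 kb from VCL. Both held 1 copy of TGAGTCA. The sites about 23 kb upstream were intergenic and closer to a CAMK2G TSS (13.3 kb for the shared one) than to any TSS of PLAU (21.28 kb). CAMK2G had 14 of the 16 PLAU peaks of both lists together within its own reach, and VCL had 9. Position alone therefore does not assign these peaks to PLAU.

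PLAUR, the gene of the urokinase receptor, lies on chromosome 19 from 44150247 to 44174699 on the minus strand (ENSG00000011422.12). It had 3 Fra-1 peaks and 3 Fra-2 peaks, of which 1 pair overlapped. At least 3 peaks were near 11.8% of protein-coding genes for Fra-1 and 20.6% for Fra-2. Only 1 PLAUR peak was within 10 kb of a PLAUR TSS, and it was in the Fra-1 list alone. That peak, from 44173201 to 44173351, was 150 bp wide and lay in an intron 1.04 kb downstream of the MANE Select TSS. Its sequence is given because it holds the element 7 bp from the centre, on the minus strand of hg19 and thus as TGAGTCA in the direction of PLAUR transcription. The capitals mark it as it reads on the plus strand.

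PLAUR, intron, chr19:44173201-44173350, plus strand: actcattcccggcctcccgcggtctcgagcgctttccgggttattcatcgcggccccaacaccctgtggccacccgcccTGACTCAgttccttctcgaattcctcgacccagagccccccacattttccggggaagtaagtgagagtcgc

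The nearest Fra-2 peak lay 82.6 kb from a PLAUR TSS. The PLAUR promoter itself held a copy of the element without a peak. In the RefSeq promoter sequence (250 bases before and 50 after the start, GRCh38.p14), TGAGTCA began 186 bp before the TSS. All 250 bases before that TSS also lie in an annotated untranslated region of PLAUR, whose first annotated TSS is farther upstream, at 44174699. The same bases occur in hg19 as chr19:44174491-44174517 on the minus strand, here with TGAGTCA in capitals:
PLAUR promoter element: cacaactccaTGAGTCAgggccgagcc
The nearest Fra-1 peak was 922 bp from that promoter window, and it is the intronic peak just described. TGAGTCA was in 4.95% of 35116 RefSeq promoters of all genes.

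The remaining PLAUR peaks sat beside other genes. The shared site, from 44269401 to 44269701 in the Fra-1 list and from 44269351 to 44269751 in the Fra-2 list, was the widest Fra-2 peak of the 5 genes at 400 bp. Only 2.69% of all Fra-2 peaks were at least as wide. It held 1 copy of TGAGTCA and 1 of TGAATCA and was 3.58 kb from a TSS of KCNN4, a calcium-activated potassium channel gene, against 94.85 kb from PLAUR. Fra-2 peaks of 250 and 300 bp lay 1.42 and 2.49 kb from a TSS of SMG9, a gene of RNA surveillance. The first was in an SMG9 intron, and neither overlapped a Fra-1 peak. The other Fra-1 peak was in XRCC1, a DNA repair gene, 1.82 kb from its TSS; its copy of TGAGTCA was 83 bp from the centre, outside the peak.

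PLAT encodes tissue-type plasminogen activator and lies on chromosome 8 from 42032236 to 42065227 on the minus strand (ENSG00000104368.19). It had 2 Fra-1 and 3 Fra-2 peaks, and both Fra-1 peaks were shared. At least 2 Fra-1 peaks were near 23.3% of protein-coding genes and at least 3 Fra-2 peaks near 20.6%. The upstream site ran from 42067451 to 42067601 for Fra-1, centred 2.44 kb before the MANE Select TSS, and its Fra-2 peak began 100 bp lower, at 42067351. The intronic site, from 42053851 to 42054001 in the Fra-1 list and to 42054101 in the Fra-2 list, was 11.16 kb downstream of that TSS and 0.71 kb from the nearest PLAT TSS. Both were 150 bp wide for Fra-1 and 250 bp wide for Fra-2, and both held 1 copy of TGAGTCA. The Fra-2 peak without a counterpart, 100 bp wide, lay in an intron of IKBKB, a kinase gene of the NF-kB pathway, 69.72 kb from PLAT.

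SERPINE2 encodes protease nexin-1, a serpin that inhibits thrombin and both plasminogen activators. It lies on chromosome 2 from 224839762 to 224904035 on the minus strand (ENSG00000135919.14). It had 2 Fra-1 and 3 Fra-2 peaks, none of them in the gene or within 10 kb of a TSS. The shared site nearest to it was 47.45 kb upstream of the MANE Select TSS, and no other protein-coding gene had a nearer TSS. Its Fra-1 peak ran from 224951351 to 224951551 (200 bp), and its Fra-2 peak, from 224951401 to 224951501, was 100 bp wide. This was the only 1 of the 11 shared sites that was wider for Fra-1. It is shown because its single element lies 1 bp from the centre of both peaks. The capitals mark the element. TGAGTAA, the variant marked at the PLAU site 4.26 kb upstream, is also present here in lower case.

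SERPINE2, 47.45 kb upstream, chr2:224951351-224951550, plus strand: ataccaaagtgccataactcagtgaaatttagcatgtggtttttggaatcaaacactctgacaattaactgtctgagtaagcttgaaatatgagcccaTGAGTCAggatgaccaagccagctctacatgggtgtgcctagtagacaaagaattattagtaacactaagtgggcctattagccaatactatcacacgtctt

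The other SERPINE2 peaks were on the far side of the gene. The shared one, from 224760501 to 224760651 in the Fra-1 list and from 224760451 to 224760701 in the Fra-2 list, held 2 copies of TGAGTCA and lay 1.4 kb from a TSS of WDFY1. It met the rule only through the TSS of a SERPINE2 transcript that is not annotated as protein-coding. The Fra-2 peak from 224806901 to 224807001 was the only peak outside PLAU without TGAGTCA within 100 bp of its centre; it had TGAATCA 49 bp from its centre, across the edge of the peak. The RefSeq promoters of SERPINE2 held none of TGAGTCA, TGACGTCA, TGAGGTCA or TGAATCA.

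SERPINB2 encodes plasminogen activator inhibitor type 2, a serpin of the urokinase system. It lies on chromosome 18 from 61538926 to 61571122 on the plus strand (ENSG00000197632.9). It had no peak in either list. The same held for 38.8% of protein-coding genes. The nearest peaks were 1420 kb away in the Fra-1 list and 990 kb away in the Fra-2 list. The protein-coding gene with the nearest TSS was ZCCHC2 for the first peak and PHLPP1 for the second. Both peaks lie at lower coordinates. On the other side the nearest were 3880 kb away for Fra-1 and 6430 kb away for Fra-2. The stretch without peaks thus reached far beyond the gene. SERPINB2 belongs to a cluster of related serpin genes on chromosome 18. The other 9 SERPINB genes there, from SERPINB5 to SERPINB8, lie in the same stretch and so had no peak in either list. SERPINB2 had 33 copies of TGAGTCA in reach, the fewest of the 5 genes. Each of the other 4 had 43 or 44, and the median over all protein-coding genes was 36. Whether the number of copies bears on the absence of peaks was not tested.

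The SERPINB2 promoter is shown as the case of AP-1-like letters without a peak. The 250 bases before the TSS in RefSeq (GRCh38.p14) are found unchanged in hg19 as chr18:61554689-61554938. The capitals mark TGAGGTCA on the minus strand, shown as its reverse complement, 188 bp before the TSS, and TGAATCA on the plus strand, 102 bp before it. The marked forms were in 2.06% and 2.98% of all RefSeq promoters. The printed bases also hold TGAGTAA, in lower case shortly before TGAATCA. That variant is the one marked at the PLAU site 4.26 kb upstream, and its share of promoters was not counted.
SERPINB2 promoter: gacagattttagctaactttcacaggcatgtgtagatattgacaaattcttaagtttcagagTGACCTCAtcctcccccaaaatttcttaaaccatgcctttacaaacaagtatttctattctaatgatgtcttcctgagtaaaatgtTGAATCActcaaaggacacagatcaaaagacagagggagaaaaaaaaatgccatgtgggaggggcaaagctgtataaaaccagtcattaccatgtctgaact

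**Figure D3:**
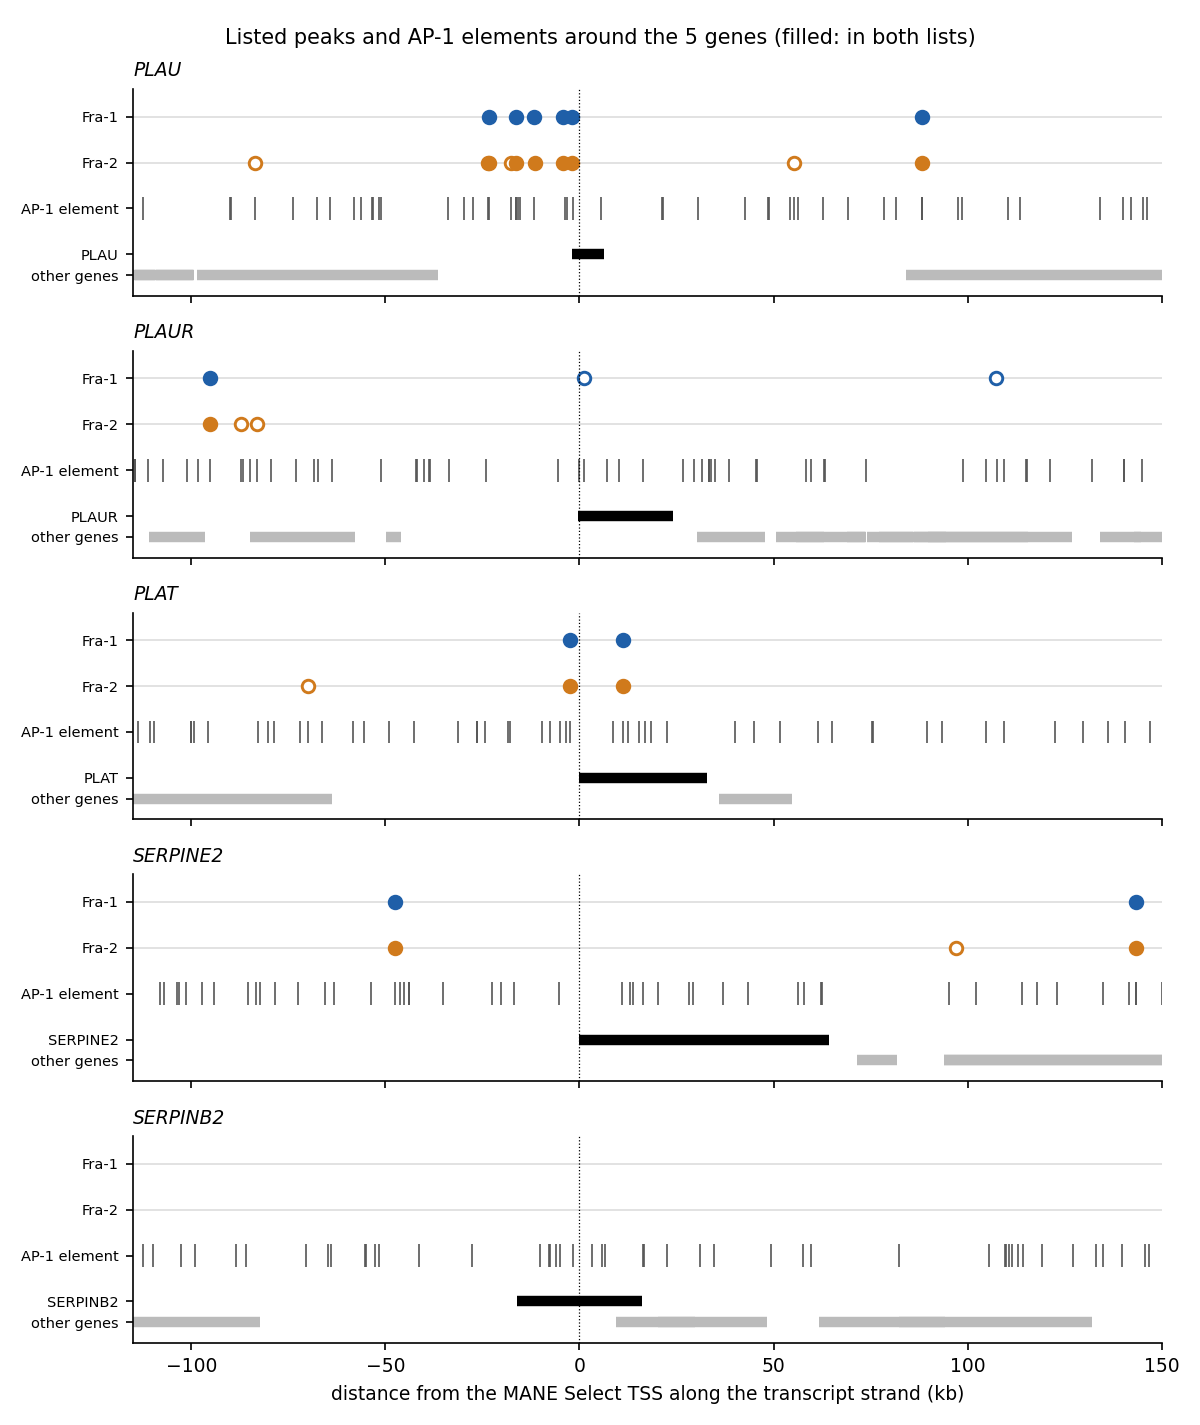
Peaks of the 5 genes by distance from the MANE Select TSS along the transcript strand in kb (horizontal axis), with rows for the Fra-1 list, the Fra-2 list, copies of TGAGTCA (AP-1 element), the gene (black) and other protein-coding genes (grey). Filled circles are in both lists. Peaks crowd upstream of PLAU, lie on both sides of the start of PLAT, stand outside SERPINE2 (the nearest, a Fra-2 peak, 32.8 kb from the gene) and are missing at SERPINB2.

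Across the 5 genes the peaks formed 21 sites, of which 11 were in both lists, 2 in the Fra-1 list only and 8 in the Fra-2 list only. Both Fra-1-only sites belonged to PLAUR. Of the Fra-1 peaks, 11 of 13 were shared (84.6%, 95% exact binomial interval 54.6 to 98.1), beside 80.4% of all Fra-1 peaks. Of the Fra-2 peaks, 11 of 19 were shared (57.9%, 33.5 to 79.7), beside 61.6% of all Fra-2 peaks. The intervals allow for counting error alone, as if each peak were independent of its neighbours. Both contain the share over the whole list, so a difference from the rest of the list was not detectable at these counts. No peak of the 5 genes was in a repeat-like region, beside 15.2% of the Fra-1 list and 12.3% of the Fra-2 list. The intervals, 0 to 24.7% for Fra-1 and 0 to 17.6% for Fra-2, contain these shares.

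TGAGTCA was found no more than 100 bp from the centre in 11 of 13 Fra-1 peaks (84.6%, 54.6 to 98.1) and 16 of 19 Fra-2 peaks (84.2%, 60.4 to 96.6). Over all nuclear peaks the shares were 56.8% and 67.5%, inside the interval for both lists. At the genes other than PLAU, all 7 Fra-1 peaks and 8 of the 9 Fra-2 peaks had the element within 100 bp of the centre. For the Fra-1 peak in XRCC1 that copy lay outside the peak itself. The distance from the peak centre to the nearest copy had a median of 18 bp in the Fra-1 list and 30.5 bp in the Fra-2 list, beside 21 and 20 bp over all peaks with the element. The cyclic AMP response element TGACGTCA was in no peak of the 5 genes, as in nearly all peaks of the lists (0.201% for Fra-1 and 0.393% for Fra-2 held it). TGAGGTCA was in a single one, the Fra-2 peak near IKBKB. The RUNX core TGTGGTT was in 3 of 13 Fra-1 peaks, beside 6.98% of the list, and in 2 of 19 Fra-2 peaks, beside 6.33%. They lay upstream of PLAU, upstream of SERPINE2 and, for Fra-1, in XRCC1. The forkhead core TGTTTAC was in 1 peak, the Fra-2 peak in SMG9.

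The copies of TGAGTCA in the reach of each gene were counted as well, whether or not they lay in a peak. Near PLAU, 6 of 44 copies lay in Fra-1 peaks (13.6%) and 10 of 44 in Fra-2 peaks (22.7%). Genome-wide 1.56% of 459778 copies lay in Fra-1 peaks and 2.27% in Fra-2 peaks. Among 20091 protein-coding genes with at least 10 copies, 1.62% had a Fra-1 share at least as high as PLAU and 0.488% a Fra-2 share at least as high. For PLAUR the shares were 4.55% and 6.82%, for PLAT 4.65% and 6.98%, and for SERPINE2 6.82% in both lists, and for each of these at least 9.68% of genes were as high. For SERPINB2 both were 0.

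Peaks of the 5 genes had a median width of 200 bp in the Fra-1 list and 250 bp in the Fra-2 list, beside 150 bp in each whole list. The range was 150 to 300 bp for Fra-1 and 100 to 400 bp for Fra-2. At least 200 bp wide were 8 of 13 Fra-1 peaks (61.5%, 31.6 to 86.1) and 13 of 19 Fra-2 peaks (68.4%, 43.4 to 87.4), beside 43.3% and 45.7% of all peaks, which both intervals contain. Of the 11 shared sites, 7 were wider in the Fra-2 list, 3 had the same start and end in both and 1 was wider in the Fra-1 list. Fra-2 peaks without a Fra-1 counterpart had a median width of 125 bp, against 250 bp for shared ones; over the whole Fra-2 list these medians were 150 and 200 bp.

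**Figure D4:**
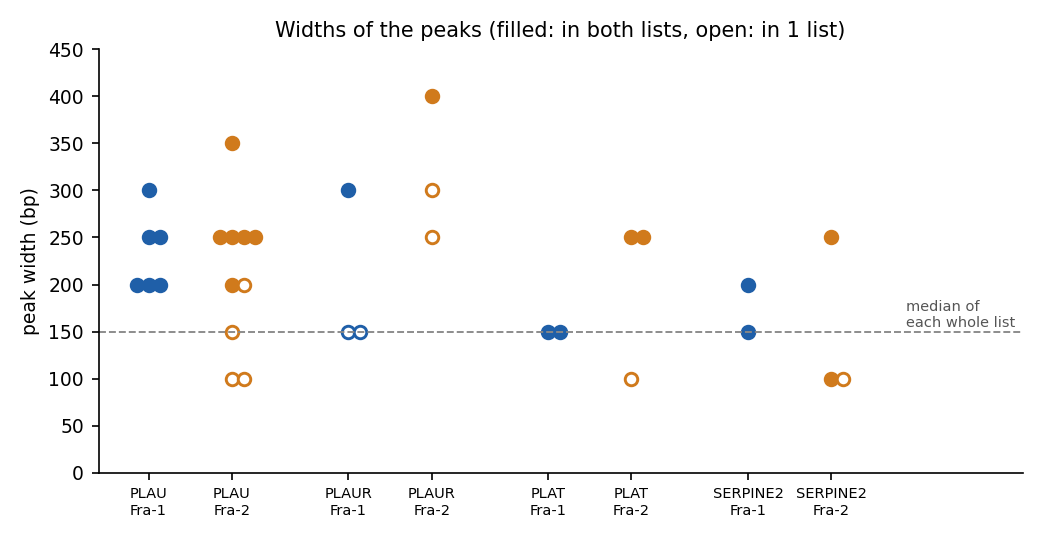
Width of each peak in bp (vertical axis) by gene and list, with filled circles for peaks in both lists and open circles for peaks in 1 list; the dashed line is the median of each whole list, 150 bp. SERPINB2 had no peak. All 6 Fra-1 peaks of PLAU were at least 200 bp wide, and the 400 bp Fra-2 peak is the PLAUR site near KCNN4.

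The nearest TSS of a protein-coding gene belonged to the assigned gene for 8 of 13 Fra-1 peaks (61.5%, 31.6 to 86.1) and 8 of 19 Fra-2 peaks (42.1%, 20.3 to 66.5). In both lists these were peaks of PLAU, PLAT and SERPINE2, joined in the Fra-1 list by the intronic peak of PLAUR. Within 10 kb of a TSS or in the gene body, PLAU had 3 Fra-1 and 3 Fra-2 peaks, PLAUR 1 and 0, PLAT 2 and 2, and SERPINE2 and SERPINB2 none. So 3 of the 5 genes had a Fra-1 peak and 2 a Fra-2 peak at this distance, where 16.3% and 23.3% of protein-coding genes did.

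Another 26 genes of the plasminogen system were examined by the same rule. Of these, 14 had a Fra-1 peak (53.8%) and 18 a Fra-2 peak (69.2%), all 14 also being among the 18. The background was 45.3% and 58.6% of protein-coding genes. The median count was 1 Fra-1 peak and 1.5 Fra-2 peaks for the 26 genes, beside 0 and 1 for protein-coding genes. In the gene body or within 10 kb of a TSS, 8 had a Fra-1 peak (30.8%) and 9 a Fra-2 peak (34.6%), beside 16.3% and 23.3% of protein-coding genes. Those near peaks numbered 17 for Fra-1, of which 16 were shared and 13 held TGAGTCA. For Fra-2 they numbered 24, of which 16 were shared and 18 held TGAGTCA. The background for sharing was 80.4% of the Fra-1 list and 61.6% of the Fra-2 list. For TGAGTCA it was 56.8% and 67.5% of nuclear peaks. Whether the counts differ from these shares was not tested. The plasminogen gene PLG itself had no peak in either list, and neither did KLKB1, LPA, VTN, A2M, SERPINI1, LRP2 and LRPAP1.

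Among the other inhibitor genes, SERPINA5 had 2 Fra-1 and 4 Fra-2 peaks, none in the gene or within 10 kb.

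Among genes of plasminogen-binding proteins, S100A10, ANXA2 and ENO1 had peaks near their starts. In contrast, PLGRKT, a plasminogen receptor gene, had 1 peak in each list and none in the gene or within 10 kb. HRG, with 1 Fra-1 and 2 Fra-2 peaks, likewise had none in the gene or at that distance. S100A10, whose product pairs with annexin A2 to bind plasminogen, had a shared 300 bp peak centred at a TSS on chromosome 1 from 151964901 to 151965201. Its 5 Fra-1 and 6 Fra-2 peaks included 3 in each list within 10 kb. ANXA2, the gene of annexin A2, had 5 peaks in each list, all in the gene or within 10 kb of a TSS. The widest of these, on chromosome 15 from 60685201, was 300 bp in the Fra-1 list and 400 bp in the Fra-2 list. ENO1, whose product binds plasminogen on cells besides its role in glycolysis, had a single Fra-1 peak in the gene or within 10 kb and 3 Fra-2 peaks.

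Other genes of the system, receptors and integrins among them, varied. The vitronectin receptor subunit gene ITGB5 had a 600 bp Fra-1 and a 550 bp Fra-2 peak on chromosome 3 from 124597451, 0.18 and 0.16 kb from a TSS and without TGAGTCA within 100 bp of the centre. Peaks as wide made up 0.44% of the Fra-1 list and 0.515% of the Fra-2 list. ITGB3 had 8 peaks in each list, of which 4 lay within 50 kb of a TSS. Exactly 8 peaks were near 36 of 20098 protein-coding genes for Fra-1 and 140 for Fra-2. The 3 ITGB3 peaks in the gene held TGAGTCA and the 5 farther out did not, where 56.8% and 67.5% of all peaks held it. No ITGB3 peak was nearer to an ITGB3 TSS than 10.5 kb for Fra-1 and 10.4 kb for Fra-2. Of the peaks in the gene, those from 45343401 and 45344801 were nearest to a TSS of another gene, ENSG00000259753. LRP1, an endocytic receptor that clears urokinase complexed with inhibitors, had a single Fra-2 peak within 10 kb and no Fra-1 peak there. VLDLR, IGF2R and ST14 each had 1 Fra-1 peak and 2 Fra-2 peaks in the gene or at that distance.

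**Figure D5:**
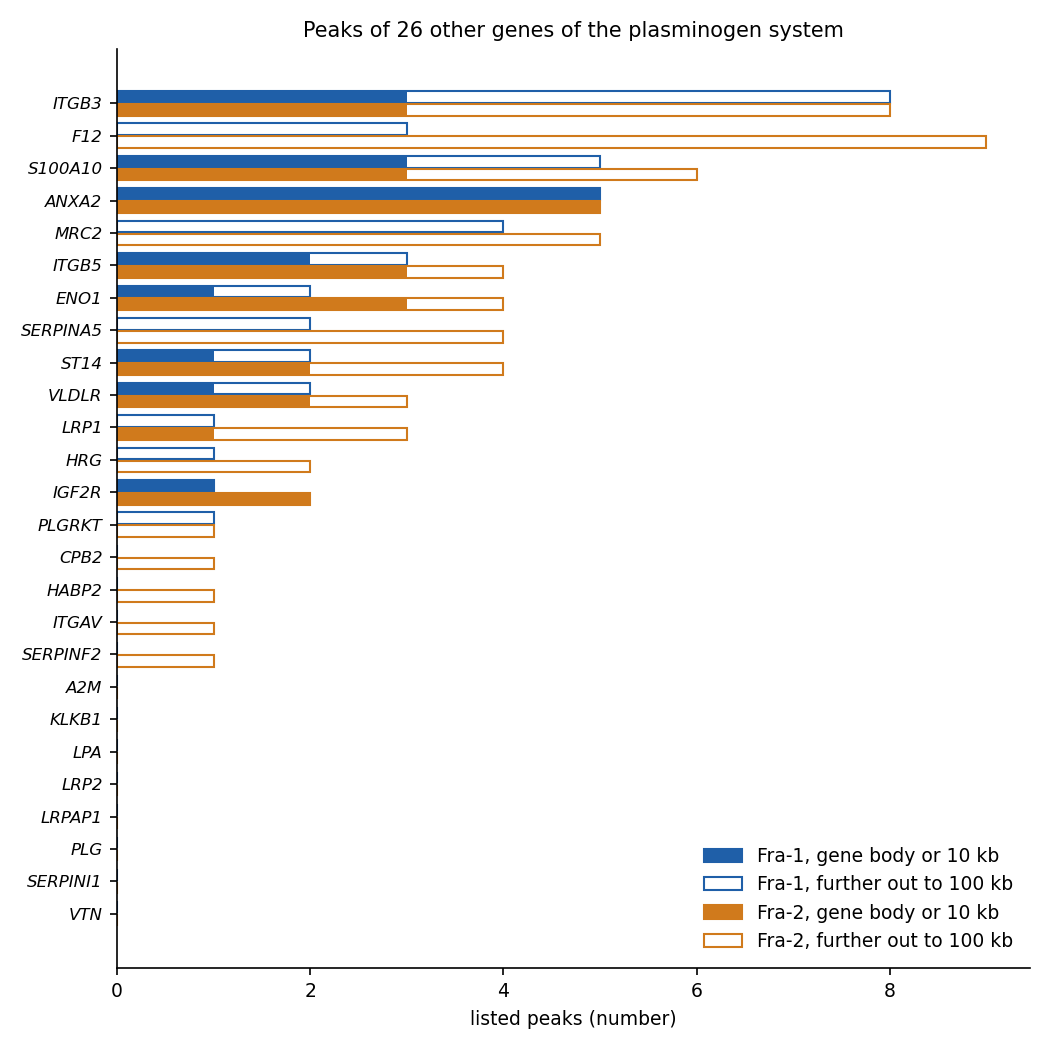
Number of listed peaks (horizontal axis) of 26 other genes of the plasminogen system in the Fra-1 list (blue) and the Fra-2 list (orange). Filled bars are peaks in the gene body or within 10 kb of a TSS, and open bars extend to the count within 100 kb. ITGB3 had 8 peaks in each list, and 8 genes had none. F12 had 3 Fra-1 peaks and 9 Fra-2 peaks, the most in the Fra-2 list, but none in the gene body or within 10 kb.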

How the data were processed

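The deposited data are 1 list of ChIP-seq peaks per antibody from MDA-MB-231 cells. Each gives chromosome, start and end on a 50 bp grid and no height or score. Per the submitters' processing notes, Bowtie2 and hg19 were used. Which peak caller and threshold were used, whether the input entered, and how replicates were joined is not given in the sources used here. All starts and ends lie 1 above a multiple of 50, and every nuclear peak ends within its GRCh37 chromosome. Starts were read as 1-based, width is end minus start, and printed sequences run from the start to the base before the end.

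Genes and TSSs of all transcripts came from GENCODE 44 lifted to GRCh37, promoters from RefSeq (GRCh38.p14; all member promoters in that table matched GRCh37 letter for letter). A peak counted as shared when it overlapped the other list by 1 bp or more. The motifs spelled out in the report were searched on either strand, up to 100 bp from the centre of a peak. Repeat-like peaks lie on chromosome Y or M, less than 1 Mb from an assembly gap of 1 Mb or more, or where over 20% of the 10-base words within 1000 bp recur. One gene of the plasminogen system is not reported here. Members and lists were chosen with earlier results of these data known. Named were the 5 genes, other genes of the system with a peak in the body or within 10 kb (by most peaks), and the nearest genes. SERPINA5, PLGRKT, HRG, F12 and genes without a peak were named after their values were seen. As the lists hold no score, peaks at least 200 bp wide stood in for a stricter threshold. No test was run, because each antibody has a single list. The counting used numpy 2.4.6 and pandas 2.3.3 under Python 3.11.15 and was tested on simulated data; scipy 1.17.1 gave the intervals and matplotlib 3.10.9 the figures.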

Additional observations from a re-analysis of the deposited data

How the results depend on the processing

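Of 122 values recomputed under other settings, 88 stayed (a count within 1.5 times the reported one, a share within its interval, a median width equal) and 34 moved. Distance mattered most. Within 50 kb of a TSS, the Fra-2 total was 11 peaks, PLAUR kept 1 Fra-1 and 0 Fra-2 peaks and SERPINE2 1 Fra-1 peak. Within 10 kb the totals were 6 Fra-1 and 5 Fra-2 peaks: 3 and 3 for PLAU, 1 and 0 for PLAUR, and 0 and 0 for SERPINE2. There the median Fra-1 width was 175 bp, all peaks (100%) were nearest to the assigned gene, 100% of Fra-2 peaks were shared and 60% held TGAGTCA, and 8 and 9 of the other plasminogen genes had a Fra-1 or a Fra-2 peak. Counting only peaks nearest to the assigned gene left 8 and 8 peaks, with 87.5% of Fra-2 peaks shared, and 5 Fra-2 peaks for PLAU, 1 and 0 for PLAUR and 1 and 1 for SERPINE2. TSSs of protein-coding transcripts alone left SERPINE2 1 Fra-1 peak. Among peaks at least 200 bp wide there were 8 Fra-1 peaks, 100% of them shared, with 1 for PLAUR, 0 for PLAT and 1 for SERPINE2, which also had 1 Fra-2 peak. Fewer peaks entered under each of these settings by construction. Leaving out repeat-like regions changed no peak count of the 5 genes and no share of their peaks that was shared or held TGAGTCA, and other overlap rules, motif windows and motif forms moved no share out of its interval. No paired analysis was possible because each antibody has 1 list. Without scores or depth, how close a peak lay to the calling threshold is unknown, and a site missing from 1 list may lie just below it.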
